A study of Medicago truncatula with 12 samples.

Results

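The genes described here are the 100 *M. truncatula* genes with the highest shared increase at 2 h of cold, drought and salt stress. They were taken from genes with a cap on their rise at 12 h, which did not require a return to the starting level. The change of a gene was expressed as L, the log2 ratio of FPKM + 1 to FPKM + 1 in the 0 h library of the same stress, where FPKM is the number of fragments scaled by transcript length and by the mapped fragments of the library. A gene was considered when its FPKM was at least 1 in the 3 libraries at 0 h and its L was at most 0.5 at 12 h of every stress, and the 25 *MtSWEET* sugar transporter genes were left out. Of 54073 genes listed, 20872 had an FPKM of at least 1 in all 0 h libraries, 14529 of them were also under the 12 h cap, and the 100 with the highest minimum L over cold, drought and salt at 2 h were taken as members.

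The plants were wild-type seedlings of Jemalong A17, 4 weeks old, grown in long days. Whole seedlings were taken for RNA after 0, 2, 6 and 12 h under cold (a constant low temperature), drought (transfer to dry filter paper) or salt (nutrient solution with added NaCl), with 1 library for each of the 12 conditions. No library of unstressed seedlings at 2, 6 or 12 h was analysed here, so stress cannot be told apart from time of day, age or the transfer itself. With 1 library per condition there was no replicate check, no p-value is given, and the 95% intervals below cover counting error only. In whole seedlings, fewer cells of a type and less RNA per cell cannot be told apart.

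Plants answer cold, water loss and salt with specific programmes and with a shared early response. In *Arabidopsis*, the shared early response includes genes for calcium sensing, protein kinases, hormone synthesis and transcription factors such as those of the WRKY, ERF and ZAT families, and many of these transcripts are short-lived, so that their levels climb and fall within hours of the stimulus. Slower genes, for instance those of dehydrins and other protective proteins, usually stay high for as long as the stress lasts. Which of these classes the members belong to could not be read from the tables, because 0 of the identifiers matched the annotation used here. The members are therefore described by their levels, and 4 of them are given by identifier.

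The members were selected on their FPKM values at 0, 2 and 12 h, so these values are given as a description. The shared increase was small for most members. The minimum L was 1.37 for the first gene, 0.97 for the second and 0.86 for the third, but only 0.31 at rank 50, a 1.24-fold change of FPKM + 1. Of the 589 ranked genes with a minimum L above 0, 15 reached 0.5 and 1 reached 1. The 12 h cap of 0.5 thus lay above the minimum L of most members, and the rule did not require a fall after 2 h. At 12 h, 19 members in cold, 9 in drought and 15 in salt were higher than at 2 h of the same stress. The last members inside the list, at ranks 98, 99 and 100, had minimum L values of 0.2279, 0.2259 and 0.2255, and the first genes outside it had 0.2247, 0.2228 and 0.2214. No gap therefore separated the members from the genes ranked after them. None of the 4 *MtSWEET* genes that met the other conditions reached this threshold.

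**Figure D1:**
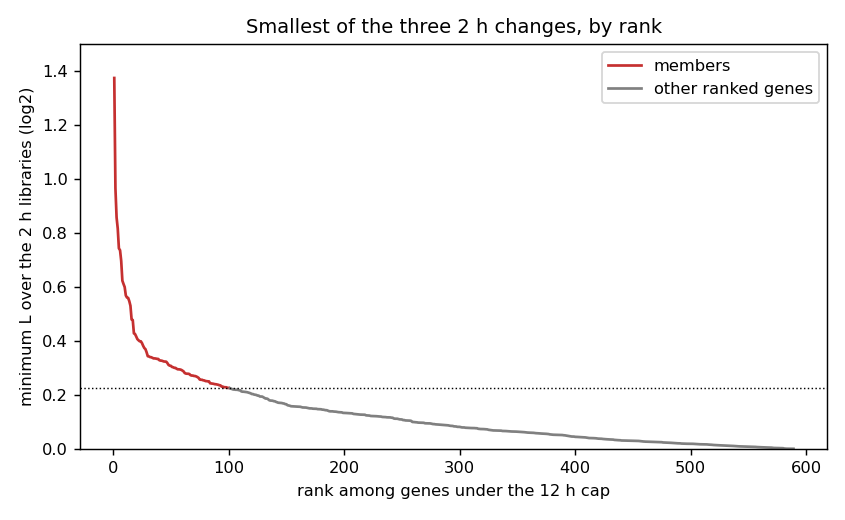
Minimum L over cold, drought and salt at 2 h (y axis, log2 scale) for the 589 genes under the 12 h cap in which it was above 0, by rank (x axis), with the 100 members in red, the other ranked genes in grey and the threshold as a dotted line. The curve fell steeply over the first ranks and had no step at rank 100.

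At the level of FPKM, the median over members was 8.21, 14.5, 11.8 and 7.99 at 0, 2, 6 and 12 h of cold. Each median was taken within its own library, so the values do not follow 1 gene and their ratios are not the median change of a member. The same medians were 8.33, 14.3, 10.8 and 9.07 in drought and 8.41, 15.1, 10.3 and 8.28 in salt. The members thus started at ordinary levels, close to the medians of 9.46, 9.40 and 9.64 over all 20872 genes with FPKM of at least 1 in the 0 h libraries of cold, drought and salt. Their 0 h levels ran from 1.085 to 303.7 FPKM. Together they took 0.384, 0.631, 0.587 and 0.497% of the FPKM sum at 0, 2, 6 and 12 h of cold, 0.382, 0.66, 0.516 and 0.444% in drought, and 0.391, 0.74, 0.501 and 0.458% in salt.

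At 2 h, 18 members were at least 2-fold higher in cold, 21 in drought and 29 in salt. Over all genes with FPKM of at least 1 at 0 h the shares past 2-fold were 3.28% in cold, 6.54% in drought and 7.15% in salt, and among genes under the 12 h cap they were 0.805%, 1.63% and 1.23%. These shares are printed beside the counts only for scale, since the 2 h values were part of the choice. A 2-fold increase was shared by all stresses in 3 members, by 2 stresses in 14 and found in a single stress in 31, while 52 members reached it in none. Of those in a single stress, 16 were in salt, 8 in cold and 7 in drought. The counting interval of the 2 h fold lay above 1 for 93 members in cold, 91 in drought and 94 in salt, beside 9.28%, 12.0% and 10.0% of genes under the cap. It did so in all stresses for 81 members, in 2 stresses for 16 and in 1 stress for 3. No share over all genes is given for the counts by number of stresses or by single stress, so they are a description only.

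Within these sizes, salt gave the highest L at 2 h for 47 members, drought for 31 and cold for 22, and the order was reversed for the lowest L, with 47 members in cold, 31 in drought and 22 in salt. The median L at 2 h was 0.41 in cold, 0.56 in drought and 0.52 in salt. A group of 21 members stood out in 1 stress, with an L at least 1 above that of the next stress, and 14 of these were led by salt, 4 by cold and 3 by drought. At the other end, the 2 h values of 22 members lay within 0.25 of each other on the L scale. The rule thus brought together genes with even, small increases and genes with a high response to 1 stress and small ones to the others. Over all genes with FPKM of at least 1 at 0 h, L at 2 h was also spread most widely in salt. Its quartiles were -0.32 and 0.11 in cold, -0.40 and 0.20 in drought, and -0.53 and 0.20 in salt. The counts in this paragraph have no share over all genes beside them. Whether the lead of salt is particular to the members was not tested.

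**Figure D2:**
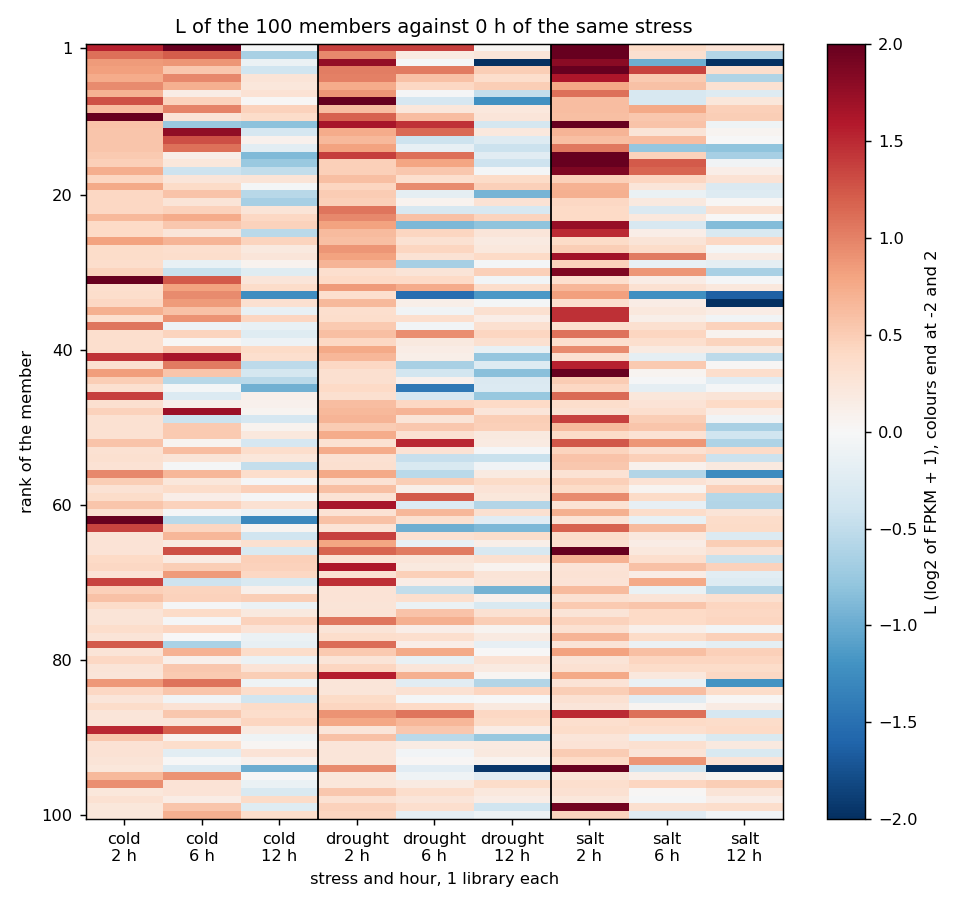
L against 0 h of the same stress (colour, log2 of FPKM + 1, ending at -2 and 2) for the 100 members by rank (rows) for each stress at 2, 6 and 12 h (columns, 1 library each). The 2 h columns are red throughout, as the rule requires, and the 6 h columns hold both signs. At 6 h, 20 members were below their 0 h value in cold, 32 in drought and 23 in salt. Genes with FPKM of at least 1 at 0 h had a median 6 h L of -0.18, -0.24 and -0.14 in this order. Most of these genes were thus below their 0 h value in every stress.

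The leading member was MTR_4g023550. It had 5.41, 17.9, 45.0 and 5.28 FPKM at 0, 2, 6 and 12 h of cold. In drought it had 5.68, 16.3, 16.2 and 5.89 FPKM, and in salt it had 5.08, 72.3, 6.92 and 6.39 FPKM. Salt gave a high value at 2 h alone, drought an even level over 2 and 6 h, and cold a maximum at 6 h, before all series came back close to their 0 h values. At 2 h the log2 ratio of FPKM was 1.72 (95% counting interval 1.39 to 2.07) in cold, 1.52 (1.20 to 1.86) in drought and 3.83 (3.50 to 4.18) in salt. At 6 h of cold it was 3.06 (2.75 to 3.39), which was the highest 6 h change of any member.

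MTR_2g038040 was second by the minimum L. It had 8.96, 20.3, 22.0 and 5.34 FPKM at 0, 2, 6 and 12 h of cold. In drought the values were 9.58, 19.7, 11.0 and 11.5 FPKM, and in salt they were 9.62, 58.0, 12.2 and 6.11 FPKM. As in the leading member, the salt value at 2 h was far above the others and the cold series kept its increase at 6 h. The log2 ratio at 6 h was 1.30 (1.04 to 1.56) in cold, 0.20 (-0.10 to 0.49) in drought and 0.34 (0.06 to 0.63) in salt, so the interval in drought included no change.

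MTR_7g092730, at rank 3, and MTR_4g079160, at rank 94, are given because they had the lowest 12 h values of L, a choice made after the values were seen. MTR_7g092730 had 16.1, 30.0, 30.8 and 14.9 FPKM at 0, 2, 6 and 12 h of cold. In drought it had 15.4, 54.3, 15.2 and 2.29 FPKM, and in salt 15.5, 56.4, 7.41 and 3.10 FPKM. The increase at 2 h was thus followed by values well under the 0 h level in drought and salt, with log2 ratios at 12 h of -2.75 (-3.22 to -2.31) and -2.32 (-2.72 to -1.94), against -0.12 (-0.34 to 0.11) in cold. At 6 h the log2 ratio was 0.93 (0.76 to 1.10) in cold and -1.06 (-1.31 to -0.82) in salt.

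MTR_4g079160 had 13.0, 15.5, 10.7 and 6.09 FPKM at 0, 2, 6 and 12 h of cold. In drought it had 10.5, 21.2, 8.78 and 1.97 FPKM, and in salt 12.0, 51.8, 8.90 and 0.469 FPKM. Each 6 h value of this gene was below the 0 h value of the same stress, although the counting interval in drought included no change, and the 12 h values were lower again. The 12 h value in salt rested on 9 fragments, and its log2 ratio was -4.68 (-5.83 to -3.73).

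**Figure D3:**
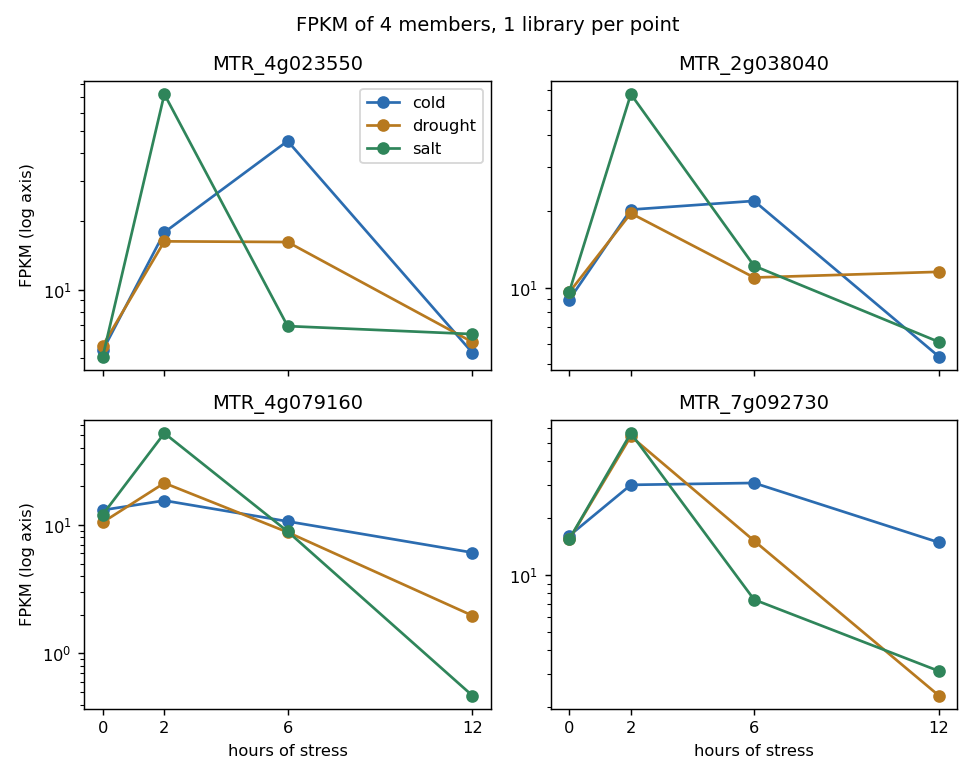
FPKM (y axis, log scale, a different range in each panel) of 4 members at 0, 2, 6 and 12 h (x axis), with a line for each stress and 1 library per point. The salt value at 2 h is the highest of its series in every panel, and the cold value at 6 h is the highest of its series in MTR_4g023550, MTR_2g038040 and MTR_7g092730.

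Members with a high response to a single stress took several shapes. The member at rank 10 had 5.18, 68.5, 6.41 and 6.98 FPKM at 0, 2, 6 and 12 h of cold, a 13.2-fold increase at 2 h (11.4 to 15.4), against 2.66-fold (2.16 to 3.28) in drought and 1.66-fold (1.34 to 2.07) in salt. The member at rank 31 had 23.9, 231, 57.2 and 28.6 FPKM in cold. In the member at rank 62, cold gave 3.14, 29.6, 1.84 and 0.697 FPKM. These cold-led members were thus near or below 0 h again at 12 h, but at 6 h they ranged between 0.588-fold (0.443 to 0.78) at rank 62 and 2.39-fold (2.19 to 2.60) at rank 31.

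Drought led in the member at rank 8, which had 4.34, 34.2, 3.23 and 1.32 FPKM at 0, 2, 6 and 12 h of drought. Its fold at 2 h was 7.87 (6.06 to 10.4) in drought, against 2.69 (2.06 to 3.56) in cold and 1.70 (1.18 to 2.5) in salt. Salt led in the member at rank 16, with 48.8, 362, 115 and 46.5 FPKM at 0, 2, 6 and 12 h of salt, and in the member at rank 11, with 10.1, 86.7, 15.4 and 9.50 FPKM. In both, the salt value at 12 h was close to that at 0 h, with folds of 0.954 (0.854 to 1.07) and 0.942 (0.802 to 1.11). The most abundant member, at rank 98, had 304, 376, 335 and 398 FPKM in cold, so that its 12 h value was the highest of the series, and its 2 h fold was only 1.24 (1.21 to 1.26).

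The 6 h libraries were not used to choose the members, although each 6 h fold shares its 0 h library with the choice. At least 2-fold higher values at 6 h were found for 14 members in cold, 11 in drought and 7 in salt. Over all genes with FPKM of at least 1 at 0 h the shares were 4.61% in cold, 9.88% in drought and 9.12% in salt, so that the members' share was above this background in cold and near it in drought and salt. Among genes under the 12 h cap, which could not be high at 12 h, the shares were 0.723% in cold, 0.482% in drought and 0.447% in salt. Against the mean of the 0 h libraries of the other stresses, an alternative chosen after seeing the data, the counts were 15 in cold, 7 in drought and 7 in salt, and against each of the 3 libraries at 0 h they were 11, 7 and 4. No member was 2-fold higher at 6 h of every stress, 6 were in 2 stresses and 20 in 1. Cold and drought shared 3 members, drought and salt shared 3, and cold and salt shared 0. No share over all genes is given for these counts by number or pair of stresses, so they are a description only.

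By the median, members were still above their 0 h level at 6 h, with an L of 0.43 in cold, 0.25 in drought and 0.28 in salt. Over the 20872 genes the medians were -0.18 in cold, -0.24 in drought and -0.14 in salt, and over the genes under the cap they were -0.26, -0.48 and -0.34. The whole table was shifted downward relative to 0 h, by 0.13, 0.19 and 0.07 on the log2 scale at 6 h in the order cold, drought, salt and by up to 0.20 at 12 h, when libraries were aligned by their median ratio. Relative to the median over the 20872 genes, the members' medians were higher by 0.60 in cold, 0.49 in drought and 0.42 in salt. The counting interval of the 6 h fold lay above 1 for 71 members in cold, 50 in drought and 58 in salt, and below 1 for 9, 18 and 9. An interval above 1 was found for 20.9%, 27.0% and 29.2% of the 20872 genes and 11.1%, 9.87% and 11.4% under the cap, in the order cold, drought, salt. An interval below 1 was found for 46.5%, 48.9% and 43.5% of the 20872 genes and 55.4%, 64.1% and 57.9% under the cap. At most 0.5-fold values at 6 h were found for 0 members in cold, 4 in drought and 2 in salt, where the shares were 11.6%, 25.5% and 16.2% over the 20872 genes and 13.3%, 33.6% and 21.5% under the cap.

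**Figure D4:**
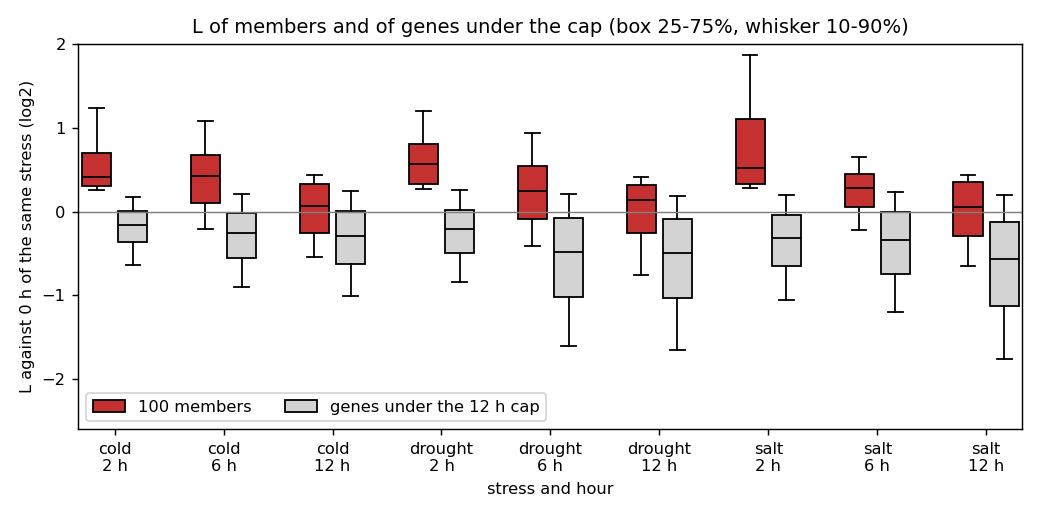
L against 0 h of the same stress (y axis, log2) at 2, 6 and 12 h of each stress (x axis) for the 100 members (red) and the 14529 genes under the 12 h cap, which include them (grey), with the median as a line, the box over the middle 50% of genes and whiskers over the middle 80%. The members' medians at 6 h were 0.43, 0.25 and 0.28 in cold, drought and salt, against -0.26, -0.48 and -0.34 for genes under the cap.

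The time of the highest value is given as a description, since it rests on the 2 h values on which the members were selected and on the capped 12 h values, and the 2 h change was the lowest of the 3 stresses in cold for 47 members. The highest of the 4 values was at 2 h for 52 members in cold, 77 in drought and 77 in salt, beside 15.2%, 18.3% and 12.4% of genes under the cap. It was at 6 h for 41 members in cold, 18 in drought and 11 in salt, beside 11.7%, 10.6% and 13.3%. The maximum was at 12 h for 7 members in cold, 5 in drought and 12 in salt, beside 16.4%, 9.07% and 10.0%. In cold, 43 members were higher at 6 h than at 2 h, against 19 in drought and 14 in salt. A total of 31 members had their maximum at 2 h of every stress, 47 in 2 stresses, 19 in 1 and 3 in none, and 0.764% of genes under the cap had it at 2 h of every stress. The most frequent pattern after the shared 2 h maximum was a maximum at 6 h of cold and at 2 h of drought and salt, in 27 members. Even with this choice, 69 of the 100 members had a later maximum in at least 1 stress. Whether the differences between stresses exceed the variation between seedlings was not tested, because each series has 1 library per time.

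Late maxima were clear in single members. The member at rank 12 had 2.42, 4.04, 10.7 and 1.69 FPKM at 0, 2, 6 and 12 h of cold, and its 6 h fold was 4.44 (3.57 to 5.58). The member at rank 48 had 7.56, 10.8, 27.1 and 7.87 FPKM in cold, with a 6 h fold of 3.58 (3.10 to 4.15). In drought, the member at rank 52 had 1.49, 2.07, 6.06 and 1.82 FPKM, a 4.07-fold increase at 6 h (2.59 to 6.65) from a low level. In each of these the increase at 6 h was above that at 2 h of the same stress, and the 12 h value was back near or under the 0 h value.

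**Figure D5:**
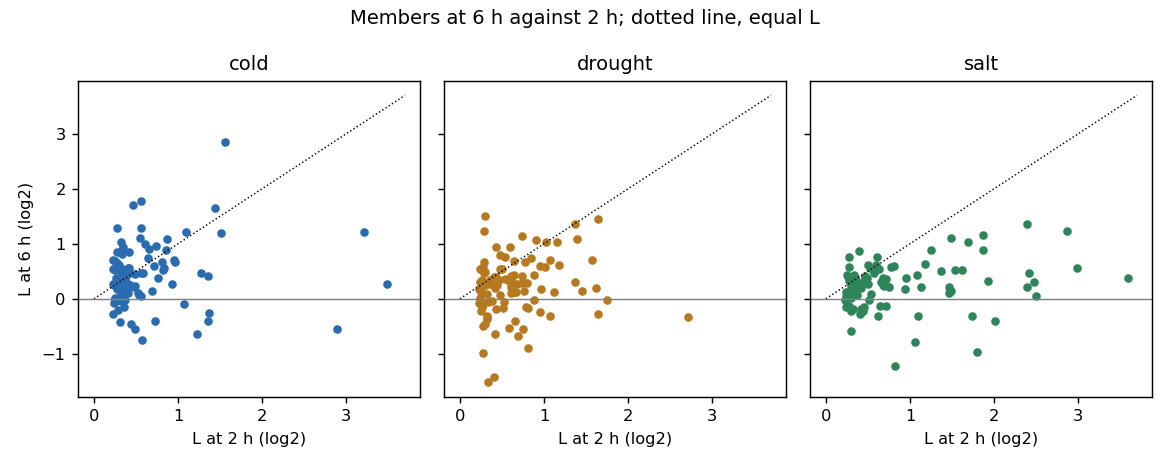
L at 6 h (y axis, log2) against L at 2 h (x axis, log2) of the 100 members in cold, drought and salt, with a dotted line at equal values and a grey line at L = 0. In cold 43 points lie above the dotted line, against 19 in drought and 14 in salt, and the members with the highest 2 h values in salt lie far below it.

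The order of the members at 6 h was more alike between drought and salt than in the pairs with cold. Spearman's rho of L across the 100 members at 6 h was 0.50 between drought and salt, 0.07 between cold and drought and -0.11 between cold and salt, against 0.71, 0.29 and 0.33 across the genes under the cap. These correlations are across genes, which are not independent replicates, within 1 library per condition. Of the members 2-fold higher at 2 h, 5 of 18 were also 2-fold higher at 6 h in cold, 6 of 21 in drought and 6 of 29 in salt. Among the other genes under the cap that were 2-fold higher at 2 h, 23 of 99 were 2-fold higher at 6 h in cold, 20 of 216 in drought and 26 of 149 in salt. Without the cap, the shares among all other genes with FPKM of at least 1 at 0 h were higher than those of the members. These shares were 400 of 666 in cold, 806 of 1345 in drought and 1090 of 1464 in salt. All these subsets were picked by their high 2 h values, and the members and the genes under the cap were also capped at 12 h. The shares are therefore a description only.

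At 12 h the cap of the rule removed high values, and only the lower side was free. At most 0.5-fold values were found for 6 members in cold, 8 in drought and 9 in salt, beside shares of 13.8%, 25.9% and 28.1% over the 20872 genes and 16.4%, 34.0% and 37.4% under the cap. Median L of the members was 0.06 in cold, 0.14 in drought and 0.06 in salt. In the same order it was -0.18, -0.26 and -0.28 over the 20872 genes and -0.30, -0.50 and -0.56 under the cap. The counting interval at 12 h lay below 1 for 23, 24 and 26 members, beside 52.2%, 63.4% and 66.5% of genes under the cap, and above 1 for 34, 35 and 36, beside 11.5%, 8.22% and 8.18%. Members below their 0 h value in every stress numbered 13, and 26 were at or above it in every stress. No share over all genes is given for these counts across stresses, so they are a description only. The member at rank 33 had the fewest fragments of any, with 3 (0.137 FPKM) at 12 h of salt, against 55 fragments (2.52 FPKM) at 0 h, a value 18.4-fold lower with a counting interval of 5.99 to 92.1. The same member had 2.57, 3.53, 5.90 and 0.503 FPKM at 0, 2, 6 and 12 h of cold and 2.74, 3.73, 0.301 and 0.689 FPKM in drought, so at 6 h it was above its 0 h value in cold and below it in drought.

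The 3 libraries at 0 h are the nearest to replicates that the design holds. The ratio of the highest to the lowest 0 h FPKM had a median of 1.17 over members and 1.17 over the 20872 genes, and reached 1.85 in members. No member differed by 2-fold between any 0 h libraries. Of the 20872 genes, 0.489% did between cold and drought and 1.89% in each pair with salt. The members were thus near this background. All 2 h values were above all 0 h values in 88 members, beside 2.20% of genes under the cap and 9.66% of the 20872 genes, a count that follows largely from the choice. The lowest 2 h fold was larger than the spread of the 0 h libraries in 74 members, and for the other 26 it was not. The count of 74 also rests on the 2 h values used in the choice, and no share over all genes is given for it. All 6 h values were above all 0 h values in 44 members, beside 2.68% of genes under the cap and 12.0% of the 20872 genes. All 12 h values were below all 0 h values in 11 members, beside 46.5% and 32.4%.

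In features that the rule did not use, the members were spread over the genome and of ordinary length. By the chromosome digit of their identifiers, 11, 15, 12, 13, 10, 10, 16 and 13 members were on chromosomes 1 to 8, where the 20872 genes had 14.6, 11.6, 14.1, 16.4, 10.9, 5.97, 11.8 and 12.1%. The digit was equal to the listed chromosome for 25 of 25 *MtSWEET* genes. Only 2 pairs of members were within 5 listed identifiers of each other, and 0 pairs were consecutive. The transcript length obtained from the FPKM steps had a median of 1778 bases (quartiles 1139 and 2518), against 1703 bases (1114 and 2529) over the 20872 genes. At 0 h the members had between 15 and 15917 fragments, with a median of 233.5, in libraries with 12200934 to 25427545 fragments on genes.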

How the data were processed

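Per their methods, the authors mapped reads with Tophat onto Mt4.0v1 and obtained FPKM from StringTie, and 1 FPKM value per gene and library was deposited. The labels also name HTSeq and describe tag-based libraries from the 3' end, which the methods do not mention. The methods speak of triplicate tests, and whether material was pooled is not given in the sources used here. Fragments were recovered as whole numbers (tolerance 0.01) from the FPKM values and the mapped reads of the supplement. This held for 37274 of 37274 genes above 0 (100%), with the smallest length that fits, so that they are minimum numbers. A gene with very low FPKM in all libraries passes this check at the shortest length, with no fragments. The 100% therefore does not show that fragments were recovered for such genes. Members had at least 3 fragments in every library. No count model was used, because FPKM is not a count and conditions have no replicates. Intervals are 95% Clopper-Pearson intervals of a library's share among the fragments of the pair compared, scaled by mapped reads.

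The members, the lists and the alternatives were chosen with earlier results of these data known. The rule for named genes allowed 2 identifiers where no annotation matched, the highest by minimum L, and 2 more were added after the values were seen. Gene lists by product, cell type markers and promoter motifs could not be applied, since no identifier matched, so the seedling label was not checked against markers. The alternatives were other pseudocounts, filters, caps, folds, 0 h references and scalings, and the rule without each stress. Steps were tested on simulated data. The work used scipy 1.17.1, pandas 2.3.3 and numpy 2.4.6 in Python 3.11.15, and figures were drawn in matplotlib 3.10.9.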

Additional observations from a re-analysis of the deposited data

Results flagged for a closer look

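The log2 ratio of MTR_7g092730 at 6 h was 0.9302 in cold and -1.062 in salt. It was picked out because the values moved in opposite directions in the 2 stresses. Only the 4 members given by identifier were searched for this. Opposite directions were also found outside them, as in the member at rank 33, with 6 h folds of 2.30 in cold and 0.110 in drought. The difference was not tested, as each condition has 1 library.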

How the results depend on the processing

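A count was taken as moved when it changed by more than 1.5 times, and a median when it changed by more than 1 SD of the members' median log2(FPKM + 1) between the 0 h libraries. By this measure 33 of 74 alternatives moved the value and 41 did not, and no median L changed sign. The limit is wide for counts, since 21 against 14 members in cold at 6 h, by the median ratio, is within it. The list itself depended on the rule. Of the 100 members, 81 were kept with a pseudocount of 0.1, 61 with one of 5, 65 with FPKM of at least 5 at 0 h, 50 with no filter, 34 with a 12 h cap of 0.25, 20 with a cap of 1, 60 against the mean of the 0 h libraries, 52 after scaling by the median ratio and 63 after scaling to TPM. The rule without cold kept 23, without drought 36 and without salt 25. At 6 h the counts at 1.5-fold were 36 in cold, 25 in drought and 21 in salt, and at 3-fold they were 4, 1 and 0. Against each of the 0 h libraries, 7 in drought and 4 in salt were left, and 7 in drought against the mean of the 0 h libraries of the other stresses. The median L at 6 h of cold was 0.4616 with a pseudocount of 0.1, 0.3738 against the mean 0 h, 0.5462 by the median ratio and 0.5282 in TPM. In drought it was 0.4267 by the median ratio and 0.3096 in TPM, and in salt 0.318 with a pseudocount of 0.1, 0.3449 by the median ratio and 0.3367 in TPM. Members at or below 1/1.5-fold at 12 h numbered 15, 16 and 19 in cold, drought and salt, and those at most 0.5-fold in cold numbered 3 in TPM. The cause was not tested. No paired analysis was possible because the labels carry no replicate numbers and each condition has 1 library. Leaving out a replicate was not possible for the same reason. Only 1 of the members' values rested on 3 fragments or fewer, but this floor does not measure whether small changes can be resolved. The counting interval of the fold held 1 for 7 members in cold, 9 in drought and 6 in salt at 2 h. At 6 h it held 1 for 20, 32 and 33 members in the same order.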
